A study of Mus musculus with 12 samples.

Results

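Serpins are a family of proteins that share one fold, and most of them inhibit proteases. An inhibitory serpin offers its reactive centre loop as bait; when a protease cuts the loop, the serpin snaps into a new shape and traps the enzyme in a covalent complex. A few members have lost this activity and work as chaperones or secreted signals. In the heart, members of the family are known for control of fibrinolysis, coagulation, complement and leukocyte proteases, and for the folding of collagen.

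The genes described here are all those of the deposited table whose symbol starts with Serpin, 48 of its 18050 genes. By the letter after Serpin, which marks the clade, 21 belong to clade A, 17 to clade B, 3 to clade E, 2 to clade F, and 1 each to clades C, D, G, H and I. Chromosome 12 holds 20 of them, chromosome 13 holds 10 and chromosome 1 holds 9. All 48 matched a RefSeq gene by gene ID.

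RNA was sequenced from the heart's left ventricle of wild-type mice, 7 days after MI, read here as myocardial infarction, or 7 days after sham surgery. Each group held 6 libraries, numbered 1 to 6, and the series title asks about the imprinted gene Pw1 in cardiac fibrosis. The submitters' processing notes part the libraries into replicates 1 and 2 and replicates 3 to 6, and the effect of MI was measured within each set and over both. The labels give no age, sex, infarct size or sampled region of the ventricle. Nothing in them ties the libraries to different animals, and the p-values therefore cover the spread among these libraries alone, which may be technical.

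Expected counts summed to 18546662 and 18602226 in MI replicates 1 and 2 and to between 14168412 and 14410783 in MI replicates 3 to 6, against 15541334 and 16066681 in sham replicates 1 and 2 and between 9140353 and 9750764 in sham replicates 3 to 6. Replicates 3 to 6 within each group were close together, with a biological coefficient of variation of 0.0207 in MI and 0.0298 in sham, against 0.192 in MI and 0.112 in sham for replicates 1 and 2. A gene was therefore called only when it passed an adjusted p of 0.05 in the same direction in 2 fits, one over all 12 libraries and one that summed replicates 3 to 6 of a group and counted them once. The tissue label was checked on 10 cardiomyocyte markers, none of which was at 0 in any library. Their summed level was 7305 to 11249 CPM in MI and 123984 to 127330 CPM in sham in replicates 1 and 2, and 33395 to 33988 CPM in MI and 108556 to 111420 CPM in sham in replicates 3 to 6, where CPM is TMM-scaled counts over library size. Over the same sets, 9 fibroblast markers summed to 58640 to 74372 CPM in MI and 3256 to 3658 CPM in sham, and to 28091 to 28383 CPM in MI and 3023 to 3177 CPM in sham. Macrophage markers, 8 in all, summed to 3586 to 5340 CPM in MI and 579.7 to 587 CPM in sham, and to 3339.5 to 3455 CPM in MI and 952 to 996 CPM in sham. In bulk tissue, fewer cells of a type and less RNA per cell cannot be told apart, and the part of these shifts in the changes of the Serpin genes was not tested.

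MI replicates 3 to 6 stood apart from the other libraries. Of the adult beta-globin counts, the copies Hbb-bs and Hbb-bt took 0.0596% to 0.194% in MI replicates 3 to 6, against 99.9% to 100% in sham replicates 3 to 6, and the copies Hbb-b1 and Hbb-b2 are blank in replicates 1 and 2. Hbb-bs and Hbb-bt belong to one globin haplotype of laboratory mice, Hbb-b1 and Hbb-b2 to another. Lung epithelium markers, 8 genes, summed to 185 to 188 CPM in MI replicates 3 to 6, against 15.5 to 28.2 CPM in MI replicates 1 and 2 and 0.990 to 2.38 CPM in sham. What sets these 4 libraries apart, strain background included, cannot be told apart from MI in any value of replicates 3 to 6 alone, and these libraries enter every value over 12 libraries.

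Of the 48 Serpin genes, 22 passed the filter on low counts in both fits, and 17 of these were called higher in MI, with none called lower. Over all 13592 genes tested by both fits, 28.1% were called higher and 29.8% lower. At an unadjusted p under 0.05, edgeR, DESeq2 and limma each found 0 of the tested members lower in MI over both sets. A rise of at least 2-fold was called for 15 of the 22 tested Serpin genes, against 17.0% of all genes tested by both fits. The 12-library fit alone called 18 of 22 members higher and 0 lower, against 37.9% and 38.0% of all genes. Counting replicates 3 to 6 once, 18 of 24 were called higher and 0 lower, against 28.2% and 29.5%. The 17 risers include 5 of clade A and 6 of clade B, as well as Serpine2, Serpind1, Serpinf1, Serping1 and Serpinh1. In 16 of them the lowest of the 6 MI libraries exceeded the highest of the 6 sham libraries, which 21.3% of the 13654 genes tested over 12 libraries did, and Serpinb8 was the exception. For each of the 16 the exact two-sided permutation test over the 12 libraries gave p = 0.00216, the smallest this design can give. Full separation of the groups fixes that value, and the test ignores the sets, so it adds nothing to the separation. All 17 risers were also called higher within replicates 1 and 2 alone, without MI replicates 3 to 6. Replicates 1 and 2 are part of both fits that chose the risers, so this is not separate support. The genes that were tested and not called are Serpina1b, Serpina3c, Serpinb6a, Serpinb6b and Serpini1. Serpind1, Serpina3m, Serpinb2 and Serpinb9b had under 10 counts in every sham library and entered the test through their MI libraries, so a rise was the only change they could show.

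**Figure D1:**
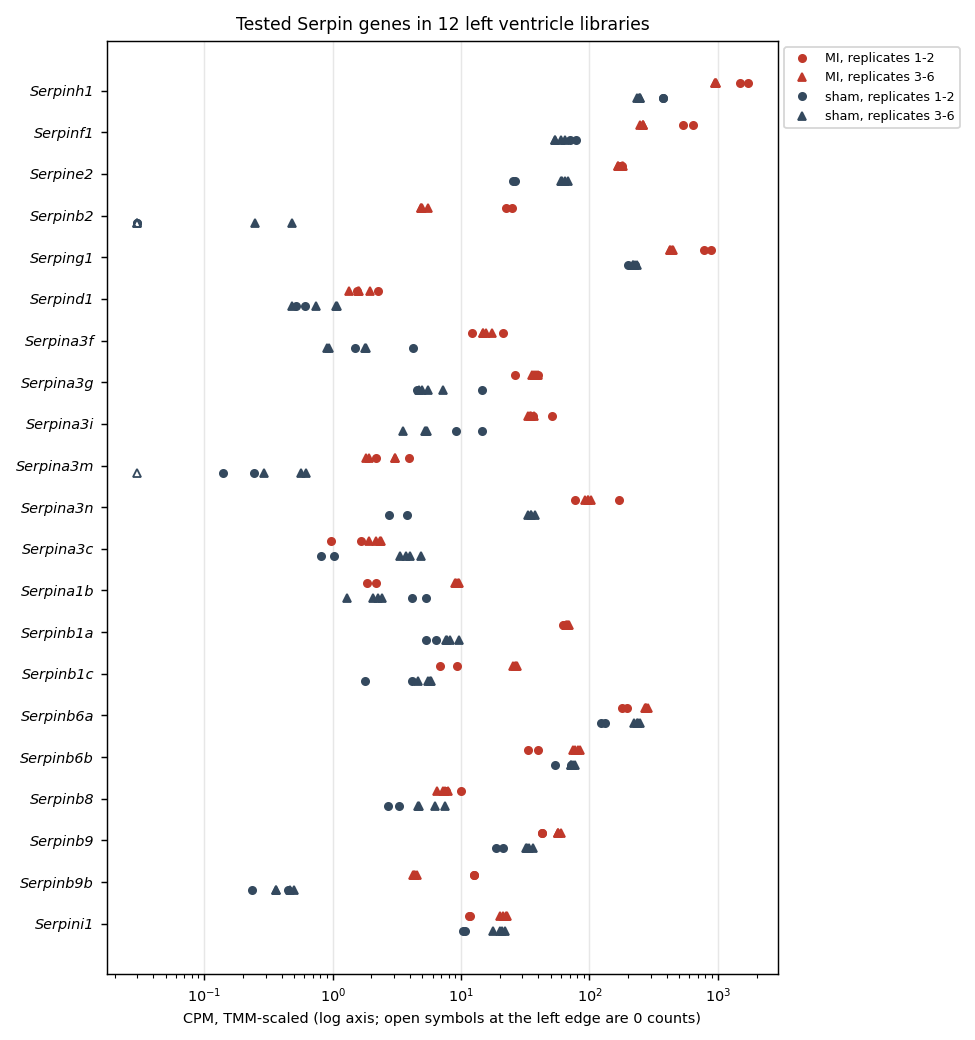
TMM-scaled CPM on a log axis for the tested Serpin genes described here, one point per library, with each gene's MI row above its sham row, circles for replicates 1 and 2 and triangles for replicates 3 to 6. MI and sham points stand apart in the risers shown other than Serpinb8, while those of Serpinb6a, Serpinb6b and Serpini1 overlap.

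Measured per transcript length, the family's total was several times higher in MI. The TPM values of the 48 genes, scaled by the authors to a common transcript total, summed to 4835 and 4996 in MI replicates 1 and 2 and to between 2770.3 and 2851 in MI replicates 3 to 6. The sham libraries held 751 and 793 TPM in replicates 1 and 2 and between 719 and 746 TPM in replicates 3 to 6. The sham sums are alike in both sets, whereas the MI sums differ between sets. Unlike the CPM used here, TPM has no TMM scaling between the groups. On log2(FPKM + 1), also without it, the median log2 fold change of all genes tested was 0.30. Serpini1 averaged 13.6 TPM in MI and 8.11 TPM in sham in replicates 3 to 6, but 21.7 and 20.2 CPM. How much of the family's excess in TPM comes from this scaling was not tested.

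Few genes make up most of that total. In MI the order by TPM was Serpinh1, Serping1, Serpinf1 and Serpinb6a in replicates 1 and 2, and Serpinh1, Serping1, Serpinb6a and Serpinf1 in replicates 3 to 6. In sham replicates 1 and 2 it was Serpinh1, Serping1, Serpinb6a and Serpinf1, while in sham replicates 3 to 6 Serpinb6a led, before Serping1 and Serpinh1. Each of these genes lay above the next in every library of its set, except that Serping1 and Serpinf1 overlapped in MI replicates 1 and 2 and that Serpinf1 overlapped the gene below it in sham replicates 3 to 6. Serpinb6a took 5.90% to 6.57% of the Serpin TPM in MI replicates 1 and 2 and 13.8% to 14.3% in MI replicates 3 to 6, against 16.6% to 16.9% in sham replicates 1 and 2 and 28.0% to 30.4% in sham replicates 3 to 6. Its share was thus lower in MI in both sets, while its own level was not. The number of Serpin genes with at least 1 TPM was 22 to 24 in MI and 17 to 18 in sham libraries, again without TMM scaling.

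**Figure D2:**
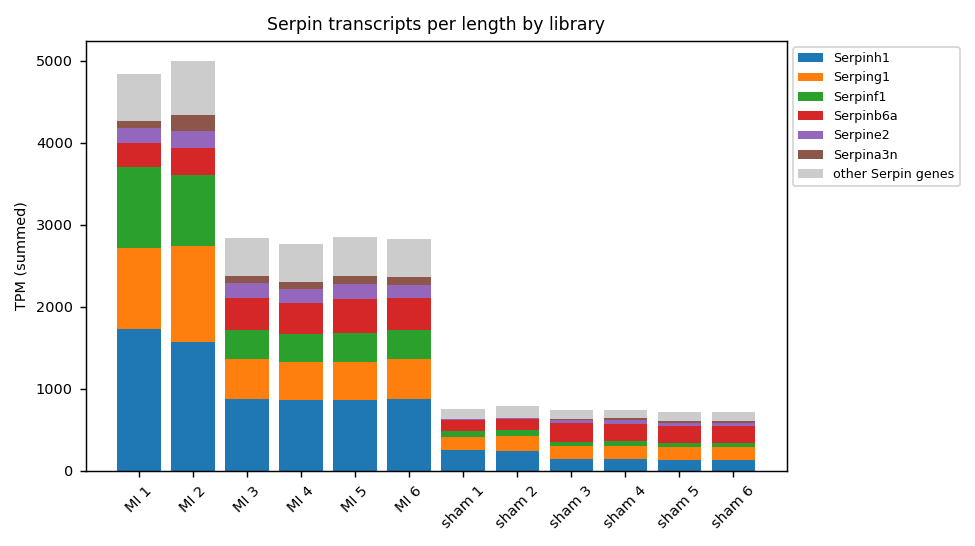
Summed TPM of the 48 Serpin genes in each library, MI libraries left of sham libraries, stacked by gene with the leading genes coloured. The MI bars stand well above the sham bars, which reach 793 TPM at most, and Serpinh1, Serping1 and Serpinf1 fill most of the MI bars.

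The collagen chaperone Serpinh1 was the most abundant Serpin in MI and rose 4-fold. Serpinh1 (gene ID 12406; GRCm38 chromosome 7, 99345375 to 99353239, minus strand) encodes HSP47, a non-inhibitory serpin of the endoplasmic reticulum that binds triple-helical procollagen. The 250 bases before its start, from RefSeq on GRCm38.p6 and given 5′ to 3′ on the minus strand, are shown because it is the member with the highest level. Capitals mark the only match among the motifs searched, a Smad CAGA box on the other strand.
Serpinh1 chr7:99353240-99353489: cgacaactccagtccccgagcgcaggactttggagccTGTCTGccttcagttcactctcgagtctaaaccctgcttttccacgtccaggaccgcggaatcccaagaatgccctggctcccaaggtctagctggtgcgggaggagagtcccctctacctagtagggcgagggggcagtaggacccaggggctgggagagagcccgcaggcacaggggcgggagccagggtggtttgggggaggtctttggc
The window holds 63.6% G and C, and its match starts 213 bases before the gene's start.

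Serpinh1 had 1703 and 1475 CPM in MI replicates 1 and 2 and 971, 958, 957 and 973 CPM in MI replicates 3 to 6, against 375 and 376 CPM in sham replicates 1 and 2 and 248, 245, 245 and 233 CPM in sham replicates 3 to 6. Every MI library lay above every sham library, and replicates 1 and 2 lay above replicates 3 to 6 in both groups. The log2 fold change was 2.02 (SE 0.07) over 12 libraries, with edgeR's adjusted p = 3.89e-10, while counting replicates 3 to 6 once gave 2.03 (adjusted p = 0.00146). Within the sets it was 2.06 (SE 0.15) and 2.04 (SE 0.03), and the difference between sets missed the threshold in the 12-library fit, at 0.09 with adjusted p = 0.360. No other annotated gene overlapped its exons or shared a stretch of 50 bases with them.

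Most tested genes for the chaperone's clients and for its partners in collagen folding were higher in MI too. Of 11 procollagen chains, all tested, 9 were called higher and none lower, where the share over all genes, for this and the later lists, was 28.1% higher and 29.8% lower, and the median log2 fold change was 4.61. The median over all genes tested was 0.01. Col5a2 rose by 4.61 (SE 0.09) on the log2 scale. Col11a1 averaged 309 CPM in MI and 0.151 CPM in sham in replicates 1 and 2, and 137 CPM in MI and 0.211 CPM in sham in replicates 3 to 6. Col4a1, a basement membrane chain, was the most abundant chain not called, with a log2 fold change of 1.59 and adjusted p = 0.0509 counted once. Of 18 genes for collagen folding and modification, 14 were called higher and only Tmem38b, a channel of the endoplasmic reticulum, was called lower, and the median log2 fold change was 1.42. Crtap, a subunit of the prolyl 3-hydroxylase complex, rose by 1.57 (SE 0.05) and P4ha3, a prolyl 4-hydroxylase subunit, by 7.59 (SE 0.16) on the log2 scale. Plod1, a lysyl hydroxylase, was not called (log2 fold change 0.42, adjusted p = 0.956 counted once). The 4-fold change of Serpinh1 was smaller than that of the fibrillar chains Col1a1, Col1a2 and Col3a1, whose log2 fold changes were 5.37, 4.76 and 4.68.

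Serpinf1 rose more than 4-fold. Serpinf1 (gene ID 20317; GRCm38 chromosome 11, 75410029 to 75422623) encodes pigment epithelium-derived factor, a secreted non-inhibitory serpin known as an inhibitor of angiogenesis. It had 643 and 533 CPM in MI replicates 1 and 2 and 262, 247, 263 and 262 CPM in MI replicates 3 to 6, against 70.0 and 78.3 CPM in sham replicates 1 and 2 and 54.2, 64.5, 59.8 and 54.2 CPM in sham replicates 3 to 6. The lowest MI library held more than 3 times the highest sham library. Over 12 libraries Serpinf1 rose by 2.43 on the log2 scale (SE 0.14, edgeR adjusted p = 2.18e-08). The sets gave 2.97 (SE 0.16) for replicates 1 and 2 against 2.20 (SE 0.04) for replicates 3 to 6, a difference that passed in the 12-library fit (adjusted p = 5.46e-05) but not with replicates 3 to 6 counted once (adjusted p = 0.0846). No stretch of 50 bases of Serpinf1 was shared with another gene.

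Protease nexin-1 and PAI-2, inhibitors of plasminogen activators, both rose. Serpine2 (gene ID 20720; GRCm38 chromosome 1, 79794317 to 79858665) encodes protease nexin-1, which inhibits thrombin as well as the plasminogen activators. It had 172 and 181 CPM in MI replicates 1 and 2 and 178, 167, 184 and 166 CPM in MI replicates 3 to 6, against 25.2 and 26.1 CPM in sham replicates 1 and 2 and 59.8, 64.9, 67.9 and 61.2 CPM in sham replicates 3 to 6. The MI levels were alike in both sets and the sham levels were not. On the log2 scale the rise was 2.76 (SE 0.12) within replicates 1 and 2, 1.50 (SE 0.04) within replicates 3 to 6, and 1.89 (SE 0.20, edgeR adjusted p = 2.92e-06) over 12 libraries. The difference between sets, 1.33, passed both in the 12-library fit (adjusted p = 6.78e-08) and with replicates 3 to 6 counted once (adjusted p = 0.0202).

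Serpinb2 (gene ID 18788; GRCm38 chromosome 1, 107500892 to 107525600, plus strand) encodes PAI-2, a urokinase inhibitor that is mostly kept inside the cell and is known from activated macrophages. Its promoter is shown because it had the largest fitted rise. It is the 250 bases before the first of 2 starts in RefSeq, on GRCm38.p6, 5′ to 3′ on the plus strand, with an AP-1 match in capitals. Both of these starts lie inside the span of the gene given above, which begins further upstream.
Serpinb2 chr1:107511173-107511422: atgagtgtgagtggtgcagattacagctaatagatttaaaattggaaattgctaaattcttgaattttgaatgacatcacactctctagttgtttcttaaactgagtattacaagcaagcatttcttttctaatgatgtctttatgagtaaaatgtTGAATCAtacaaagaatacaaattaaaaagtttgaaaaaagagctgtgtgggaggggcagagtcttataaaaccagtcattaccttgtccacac
The match starts 94 bases before the start, and the window holds 32.4% G and C. The window before the other start overlaps this one, holds the same AP-1 match and has a GAS match besides.

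No read of Serpinb2 was counted in sham replicates 1 and 2. It had 22.3 and 24.9 CPM in MI replicates 1 and 2 and 4.96, 4.86, 5.47 and 4.85 CPM in MI replicates 3 to 6, against 0 CPM in 4 of the sham libraries and 0.249 and 0.478 CPM in sham replicates 4 and 5. The groups did not overlap, and the MI level was higher in replicates 1 and 2. Scaled for library size, the 1003 counts of MI replicates 1 and 2 stood at least 209.7-fold above a floor of 3 counts over the sham pair. In replicates 3 to 6 the 331 counts of MI against 6 of sham gave a ratio of 27.8 (exact 95% interval 12.6 to 76.3, counting error only). edgeR's adjusted p was 7.32e-07 over 12 libraries and 0.00212 with replicates 3 to 6 counted once. On the same strand, 12.4% of the exon bases of Serpinb2 overlap exons of its neighbour Serpinb10, so reads there could be given to either gene.

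Most tested genes for the enzymes and receptors of plasminogen activation were higher in MI as well. Of 8 tested genes of that list, 6 were called higher and 1 lower, and the median log2 fold change was 1.34. The urokinase activator Plau, its receptor Plaur and the tissue activator Plat rose by 1.62 (SE 0.16), 2.41 (SE 0.20) and 1.06 (SE 0.08) on the log2 scale. Anxa2, which binds the tissue activator and plasminogen at the cell surface, rose by 1.96 (SE 0.08). The matrix protein Thbs1 averaged 493 CPM in MI and 3.23 CPM in sham in replicates 1 and 2, and 285 CPM in MI and 8.58 CPM in sham in replicates 3 to 6. Vtn, vitronectin, an adhesive protein of plasma and matrix, fell by 1.55 (SE 0.26) on the log2 scale. Plgrkt, a plasminogen receptor, was the most abundant member not called (log2 fold change 0.13, adjusted p = 0.245). Plg, plasminogen itself, averaged at most 0.0381 CPM in any group of a set. Of 6 tested lipoprotein receptors, a family that clears serpin-protease complexes, 3 were called higher and 1 lower, against 28.1% and 29.8% of all genes. Lrp8 rose by 3.54 (SE 0.32) on the log2 scale, Vldlr was the member called lower, at -1.73 (SE 0.25), and Sorl1 was not called (0.32, adjusted p = 0.244).

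**Figure D3:**
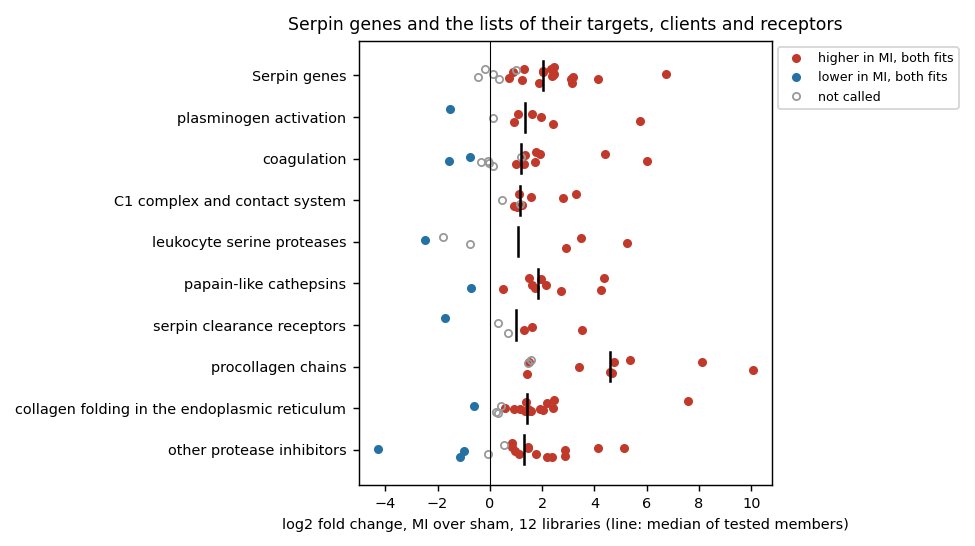
Log2 fold change of MI over sham across 12 libraries for the tested Serpin genes and the tested genes of each list of targets, clients and receptors, one point per gene, coloured by call, with a line at each median. The procollagen chains lie furthest to the right, with a median of 4.61, and each list other than the Serpin genes, procollagen and the C1 complex holds at least 1 gene called lower.

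Serping1, the C1 inhibitor, rose in both sets, more in replicates 1 and 2. Serping1 (gene ID 12258; GRCm38 chromosome 2, 84765360 to 84775444) encodes the inhibitor of the complement proteases C1r and C1s and of plasma kallikrein. It had 784 and 891 CPM in MI replicates 1 and 2 and 440.3, 427, 421 and 449 CPM in MI replicates 3 to 6, against 201 and 225 CPM in sham replicates 1 and 2 and 233, 226, 217 and 218 CPM in sham replicates 3 to 6. The 6 sham libraries lay within a narrow range and the MI libraries split by set. Over 12 libraries the rise was 1.30 on the log2 scale (SE 0.16, edgeR adjusted p = 1.09e-05), with 1.96 for replicates 1 and 2 alone and 1.01 for replicates 3 to 6 alone. The difference, 1.02, passed in the 12-library fit (adjusted p = 6.26e-07) and just passed with replicates 3 to 6 counted once (adjusted p = 0.0485). Of 9 tested genes of the C1 complex and the contact system, 7 were called higher and none lower, and the median log2 fold change was 1.14. C1qa, a recognition subunit made by macrophages, rose by 1.25 (SE 0.21) and Bdkrb2, a kinin receptor, by 1.59 (SE 0.23) on the log2 scale. C1s2 averaged 8.86 CPM in MI and 2.23 CPM in sham in replicates 1 and 2, and 6.01 CPM in MI and 0.125 CPM in sham in replicates 3 to 6. Its near-copy C1s1 was not called, at 2.0 on the log2 scale within replicates 1 and 2 but -0.23 within replicates 3 to 6, and reads of the 2 copies may be split between them.

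Serpind1, heparin cofactor II, a thrombin inhibitor made mainly in liver, was low in every library. It had 1.54 and 2.27 CPM in MI replicates 1 and 2 and 1.33, 1.60, 1.95 and 1.58 CPM in MI replicates 3 to 6, against 0.609 and 0.519 CPM in sham replicates 1 and 2 and 1.05, 0.746, 1.08 and 0.483 CPM in sham replicates 3 to 6. The groups did not overlap, on 22 to 49 counts per MI library and 4 to 9 per sham library. The log2 fold change was 1.22 (SE 0.24, edgeR adjusted p = 0.000595), with adjusted p = 0.0242 counted once, and the call was lost when any one of MI replicates 1 and 2 or sham replicates 1 and 2 was left out. The other main thrombin inhibitor of plasma, antithrombin (Serpinc1), had at most 4 counts in any library and was not tested. Of 15 tested genes of coagulation, 8 were called higher and 2 lower, and the median log2 fold change was 1.20. The thrombin receptor F2r rose by 1.71 (SE 0.05) on the log2 scale, and F7 averaged 9.86 CPM in MI and 0.0371 CPM in sham in replicates 1 and 2, and 5.29 CPM in MI and 0.152 CPM in sham in replicates 3 to 6. F3, tissue factor, and F13a1, a transglutaminase subunit, fell by 0.77 (SE 0.09) and 1.56 (SE 0.19) on the log2 scale. Tfpi, the tissue factor pathway inhibitor, was the most abundant not called (-0.33, adjusted p = 0.0994 counted once).

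The Serpina3 genes of the mouse are an expanded cluster on chromosome 12 that stands where humans have a single gene, for alpha-1-antichymotrypsin. Of the 7 tested genes of clade A, 5 rose, all of this cluster, against 28.1% of all genes, and Serpina3m could show only a rise. Since these 5 are related in sequence, some reads could come from more than one of them. The most variable 60 bases shared by their coding sequences are shown for this reason, from GENCODE M21 on GRCm38, plus strand, 5′ to 3′, with capitals at the positions where the 5 genes are not all alike.
Serpina3f chr12:104218258-104218317: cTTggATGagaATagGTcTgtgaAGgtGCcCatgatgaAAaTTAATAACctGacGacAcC
Serpina3g chr12:104239087-104239146: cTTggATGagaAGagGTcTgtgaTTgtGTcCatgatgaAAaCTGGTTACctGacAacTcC
Serpina3i chr12:104266497-104266556: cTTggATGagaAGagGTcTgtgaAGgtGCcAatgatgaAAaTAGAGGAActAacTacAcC
Serpina3m chr12:104391508-104391567: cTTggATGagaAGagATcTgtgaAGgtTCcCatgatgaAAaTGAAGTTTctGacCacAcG
Serpina3n chr12:104411179-104411238: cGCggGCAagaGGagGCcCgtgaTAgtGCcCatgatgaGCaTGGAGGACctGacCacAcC
Of these 60 positions 29 vary, or 48.3%, against 30.2% of the 648 positions that all 5 coding sequences share without a gap. Pairs of the coding sequences were 81.9% to 91.2% identical, with Serpina3f and Serpina3i the closest pair. The share of 50-base stretches found in another gene was 19.1% for Serpina3m, most of it shared with Serpina3k, 15.9% for Serpina3i, 15.5% for Serpina3g, 10.6% for Serpina3f and 6.90% for Serpina3n. Levels of single genes of the cluster are uncertain to that extent, since reads of shared stretches could be split among them.

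Serpina3n, a secreted inhibitor known to act on granzyme B, differed widely between the sets. It had 76.9 and 169 CPM in MI replicates 1 and 2 and 91.9, 97.5, 103 and 98.1 CPM in MI replicates 3 to 6, against 2.76 and 3.80 CPM in sham replicates 1 and 2 and 33.2, 35.2, 34.9 and 37.8 CPM in sham replicates 3 to 6. The MI levels overlapped between sets, whereas the sham levels of replicates 3 to 6 lay far above those of replicates 1 and 2. Its rise on the log2 scale was 5.21 (SE 0.46) in replicates 1 and 2, 1.52 (SE 0.05) in replicates 3 to 6 and 2.47 (SE 0.55, edgeR adjusted p = 0.00133) over 12 libraries. The difference, 3.76, passed in the 12-library fit (adjusted p = 2.87e-06) and counted once (adjusted p = 0.0311). The call of a rise was lost when sham replicate 1 or sham replicate 2 was left out, with log2 fold changes of 2.04 and 2.06.

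In the other risers of the cluster, sham replicates 3 to 6 did not all lie above sham replicates 1 and 2. Serpina3g, which encodes a serpin kept inside the cell and known to inhibit cathepsins, had 26.5 and 39.7 CPM in MI replicates 1 and 2 and 35.9, 36.8, 39.8 and 38.4 CPM in MI replicates 3 to 6, against 4.50 and 14.6 CPM in sham replicates 1 and 2 and 4.98, 5.49, 7.29 and 4.72 CPM in sham replicates 3 to 6. Serpina3i had 36.1 and 50.7 CPM in MI replicates 1 and 2 and 34.7, 34.8, 37.1 and 33.4 CPM in MI replicates 3 to 6, against 9.19 and 14.4 CPM in sham replicates 1 and 2 and 5.47, 3.53, 5.26 and 5.31 CPM in sham replicates 3 to 6. In both genes MI and sham did not overlap, and sham replicate 2 was the highest sham library. Serpina3f had 12.1 and 21.2 CPM in MI replicates 1 and 2 and 14.8, 15.6, 17.4 and 14.8 CPM in MI replicates 3 to 6, against 1.50 and 4.25 CPM in sham replicates 1 and 2 and 1.79, 0.908, 0.927 and 1.83 CPM in sham replicates 3 to 6. Serpina3m had 2.16 and 3.90 CPM in MI replicates 1 and 2 and 1.80, 3.04, 1.92 and 3.08 CPM in MI replicates 3 to 6, against 0.139 and 0.242 CPM in sham replicates 1 and 2 and 0.290, 0.565, 0 and 0.620 CPM in sham replicates 3 to 6. These 2 genes were likewise higher in every MI library than in any sham library, Serpina3m on at most 5.14 counts per sham library. Over 12 libraries the log2 fold changes were 2.38 (SE 0.27) for Serpina3g, 2.46 (SE 0.19) for Serpina3i, 3.10 (SE 0.29) for Serpina3f and 3.17 (SE 0.43) for Serpina3m, with edgeR adjusted p between 2.70e-07 and 2.91e-05.

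Serpina3c was not called higher, unlike the risers of its cluster. It had 0.975 and 1.66 CPM in MI replicates 1 and 2 and 2.18, 2.38, 2.34 and 1.91 CPM in MI replicates 3 to 6, against 1.02 and 0.817 CPM in sham replicates 1 and 2 and 3.75, 3.36, 4.88 and 3.97 CPM in sham replicates 3 to 6. The groups overlapped in replicates 1 and 2, and in replicates 3 to 6 every MI library was below every sham library. As in Serpina3n, sham replicates 3 to 6 all lay above sham replicates 1 and 2. MI over sham, the log2 fold change was 0.52 (adjusted p = 0.348) for replicates 1 and 2 and -0.82 (SE 0.18, adjusted p = 0.000137) in replicates 3 to 6, both from edgeR, and the gene was not called over both sets.

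Serpina1b (gene ID 20701; GRCm38 chromosome 12, 103728156 to 103738189) is one of the mouse copies of alpha-1-antitrypsin, the neutrophil elastase inhibitor of plasma, and moved in opposite directions in the sets. It had 2.16 and 1.85 CPM in MI replicates 1 and 2 and 8.95, 9.66, 9.49 and 9.06 CPM in MI replicates 3 to 6, against 4.12 and 5.36 CPM in sham replicates 1 and 2 and 1.30, 2.41, 2.26 and 2.05 CPM in sham replicates 3 to 6. Replicates 1 and 2 were lower in MI and replicates 3 to 6 higher, with no overlap within either set. Within replicates 1 and 2 the log2 fold change was -1.25 (SE 0.31, edgeR adjusted p = 0.0132), and within replicates 3 to 6 it was 2.27 (SE 0.15, adjusted p = 8.97e-14). The fall within replicates 1 and 2 missed the threshold with library size alone (-0.80, adjusted p = 0.0553) and without sham replicate 2 (-1.06, adjusted p = 0.0922), with its direction kept. The difference, -3.45, passed in the 12-library fit (adjusted p = 1.87e-07) and counted once (adjusted p = 0.0198).

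The copies of Serpina1 share sequence, and 29.5% of the 50-base stretches of Serpina1b occur in another gene, mostly Serpina1a. Of the counts given to the Serpina1 genes, Serpina1b took 99.01% to 100% in MI replicates 3 to 6, against 71.3% and 74.4% in MI replicates 1 and 2 and 69.1% to 100% in the sham libraries. Summed over the copies counted in all 12 libraries, the level was 3.03 and 2.49 CPM in MI replicates 1 and 2 and 8.95 to 9.66 CPM in MI replicates 3 to 6. In sham it was 5.05 and 6.83 CPM in replicates 1 and 2 and 1.87 to 3.27 CPM in replicates 3 to 6. The opposite directions thus held for this sum. It lacks the copy Serpina1c, which has values only in the separate FPKM of replicates 1 and 2. Hepatocyte markers summed to 1.86 to 2.22 CPM in MI replicates 3 to 6, 5.74 to 8.40 CPM in MI replicates 1 and 2 and 6.37 to 16.6 CPM in sham. Whether the globin copies and lung markers of MI replicates 3 to 6, given above, have a part in the level of Serpina1b there was not tested.

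Clade B serpins mostly act inside the cell against proteases of leukocyte granules and lysosomes. Of the 8 tested members 6 rose, against 28.1% of all genes, and among these Serpinb2 and Serpinb9b could show only a rise. Serpinb1a, the mouse orthologue of the leukocyte elastase inhibitor, rose to a similar level in both sets. It had 62.0 and 63.4 CPM in MI replicates 1 and 2 and 65.9, 66.4, 69.2 and 67.7 CPM in MI replicates 3 to 6, against 5.31 and 6.40 CPM in sham replicates 1 and 2 and 7.74, 7.60, 9.56 and 8.25 CPM in sham replicates 3 to 6. MI libraries of both sets fell in a narrow range far above the sham libraries. Over 12 libraries it rose by 3.16 on the log2 scale (SE 0.09, edgeR adjusted p = 6.03e-11), with 3.40 for replicates 1 and 2 alone and 3.07 for replicates 3 to 6 alone. Its paralogue Serpinb1c had 9.26 and 6.88 CPM in MI replicates 1 and 2 and 25.3, 27.0, 26.1 and 27.4 CPM in MI replicates 3 to 6, against 1.78 and 4.11 CPM in sham replicates 1 and 2 and 4.65, 5.56, 5.80 and 5.72 CPM in sham replicates 3 to 6. All MI libraries exceeded all sham libraries, and the log2 fold change of Serpinb1c was 2.02 (SE 0.19, adjusted p = 1.18e-06).

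Serpinb9 encodes an intracellular inhibitor of granzyme B, and Serpinb9b is a paralogue beside it on chromosome 13. Serpinb9 had 42.9 and 42.7 CPM in MI replicates 1 and 2 and 57.2, 56.8, 59.9 and 56.6 CPM in MI replicates 3 to 6, against 21.3 and 18.8 CPM in sham replicates 1 and 2 and 36.1, 32.1, 32.7 and 34.0 CPM in sham replicates 3 to 6. Serpinb9b had 12.5 and 12.5 CPM in MI replicates 1 and 2 and 4.25, 4.56, 4.34 and 4.33 CPM in MI replicates 3 to 6, against 0.233 and 0.448 CPM in sham replicates 1 and 2 and 0.468, 0.500, 0.361 and 0.362 CPM in sham replicates 3 to 6. Both genes were higher in every MI library than in any sham library, Serpinb9 by 2.11-fold within replicates 1 and 2 and 1.76-fold within replicates 3 to 6, and Serpinb9b on 3 to 6.04 counts per sham library. The log2 fold changes were 0.88 (SE 0.07, edgeR adjusted p = 1.90e-07) for Serpinb9 and 4.15 (SE 0.28, adjusted p = 7.70e-08) for Serpinb9b. Antisense gene Gm36099 overlaps 8.30% of the exon bases of Serpinb9b, and without stated strandedness its reads cannot be told apart from those of Serpinb9b.

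Serpinb8, a furin inhibitor, was the one riser whose groups overlapped. It had 7.57 and 10.02 CPM in MI replicates 1 and 2 and 7.25, 6.52, 7.52 and 7.84 CPM in MI replicates 3 to 6, against 2.71 and 3.30 CPM in sham replicates 1 and 2 and 4.68, 4.60, 6.24 and 7.47 CPM in sham replicates 3 to 6. Sham replicate 6 lay within the MI range. Serpinb8 rose by 0.74 on the log2 scale (SE 0.22, edgeR adjusted p = 0.00797), by 1.51 within replicates 1 and 2 and by 0.39 within replicates 3 to 6, and the call was lost when any one of MI replicates 1 and 2 or sham replicates 1 and 2 was left out.

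Serpinb6a and Serpinb6b, homologues of an inhibitor of cathepsin G and trypsin-like proteases, were abundant and not called over both sets. Serpinb6a had 179 and 196 CPM in MI replicates 1 and 2 and 277, 269.8, 286 and 275 CPM in MI replicates 3 to 6, against 122 and 132 CPM in sham replicates 1 and 2 and 248.7, 238, 224 and 233 CPM in sham replicates 3 to 6. MI was above sham within each set, and the sets overlapped across groups. For Serpinb6a the log2 fold change was 0.34 (SE 0.07), with edgeR adjusted p = 0.000906 over 12 libraries and 0.0556 counted once. It was called higher within replicates 1 and 2 (0.54, adjusted p = 0.00942) and within replicates 3 to 6 (0.28, adjusted p = 4.62e-09), and over both sets with DESeq2's test, with limma on FPKM, with library size alone and without sham replicate 3. Exons on the other strand, of 1110046J04Rik, Nqo2 and Ripk1, overlap 29.3% of its exon bases. Serpinb6b had 40.0 and 33.5 CPM in MI replicates 1 and 2 and 84.0, 76.9, 81.1 and 74.2 CPM in MI replicates 3 to 6, against 54.2 and 72.1 CPM in sham replicates 1 and 2 and 71.4, 71.4, 76.8 and 74.7 CPM in sham replicates 3 to 6. MI was below sham in replicates 1 and 2 and overlapped sham in replicates 3 to 6. For Serpinb6b edgeR gave -0.80 (SE 0.18, adjusted p = 0.00868) within replicates 1 and 2 but 0.15 (SE 0.04, adjusted p = 0.00206) within replicates 3 to 6, and its sign over 12 libraries, -0.19, became 0.22 when libraries were scaled by size alone. Within replicates 1 and 2 its log2 fold change was then -0.35 (adjusted p = 0.113), and it was -0.59 without sham replicate 2 (adjusted p = 0.05004).

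Transcripts of the leukocyte granule proteases that clade B serpins are known to inhibit were mostly low. Of 13 leukocyte serine proteases measured, 6 were tested, and of these 3 were called higher and 1 lower, against 28.1% and 29.8% of all genes, and the median log2 fold change was 1.07. Gzma and Gzmb, granule proteases of cytotoxic lymphocytes, rose by 2.91 (SE 0.28) and 3.49 (SE 0.36) on the log2 scale, while Gzmm fell by 2.48 (SE 0.27). Gzmb averaged 2.70 CPM in MI and 0.113 CPM in sham in replicates 1 and 2, and 2.51 CPM in MI and 0.304 CPM in sham in replicates 3 to 6. Cma1, a mast cell chymase, was not called (-0.77, adjusted p = 0.153). The neutrophil proteases Elane and Ctsg averaged at most 0.214 CPM in any group of a set and were not tested. T and NK cell markers, 8 genes, summed to 18.4 to 20.4 CPM in MI and 1.66 to 7.27 CPM in sham in replicates 1 and 2, and to 15.9 to 16.7 CPM in MI and 4.30 to 4.77 CPM in sham in replicates 3 to 6. Neutrophil markers, 7 genes, summed to 31.0 to 71.4 CPM in MI and 3.74 to 4.03 CPM in sham, and to 44.4 to 47.7 CPM in MI and 26.2 to 28.6 CPM in sham, with Mpo at 0 in all sham libraries. Of the 10 papain-like cathepsins, lysosomal cysteine proteases, 9 were called higher and only Ctsf lower, at -0.71 (SE 0.07), and the median log2 fold change was 1.83. Ctsl and Ctss rose by 1.94 (SE 0.14) and 4.35 (SE 0.30) on the log2 scale.

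Serpini1, neuroserpin, an inhibitor of the tissue plasminogen activator best known from the brain, had nearly the same level in both groups. It had 11.8 and 11.5 CPM in MI replicates 1 and 2 and 22.5, 22.9, 20.1 and 21.3 CPM in MI replicates 3 to 6, against 10.3 and 10.7 CPM in sham replicates 1 and 2 and 20.1, 22.1, 17.7 and 20.9 CPM in sham replicates 3 to 6. The sets differed more than the groups. The log2 fold change was 0.12 (SE 0.07, edgeR adjusted p = 0.121). It was called higher when libraries were scaled by size alone, at 0.53, a scaling that moved the median of all genes to 0.42. It was also called higher with limma, at 0.44 on log2(FPKM + 1), where the median of all genes was 0.30, and at 0.52 on log2(FPKM + 0.1).

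The other 26 Serpin genes were not tested in both fits, and 22 of them had under 10 counts in every library. They include the antithrombin gene Serpinc1, the alpha-2-antiplasmin gene Serpinf2 and the hormone carriers Serpina6 and Serpina7. The exceptions were Serpina1e, Serpina3k, Serpinb10 and Serpinb1b. Serpina3k had 7.68 and 31.2 counts in MI replicates 1 and 2 and 12.9, 6.87, 22.2 and 9.32 counts in MI replicates 3 to 6, against 0.940 and 3.48 counts in sham replicates 1 and 2 and at most 1.53 counts in sham replicates 3 to 6. Serpinb1b had 10.6 and 15.2 counts in MI replicates 1 and 2 and 6.42 to 10.2 counts in MI replicates 3 to 6, against at most 1.05 counts in any sham library. Both were above every sham library in every MI library. Serpinb10, the neighbour of Serpinb2, had 10 to 18 counts in MI and 3 to 6 counts in sham libraries, which differ in size. Scaled to CPM its groups overlapped, with 0.481 CPM in MI replicate 1 against 0.717 CPM in sham replicate 5. With replicates 3 to 6 counted once, Serpinb10 missed the threshold.

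Set against each other, the effect of MI on the Serpin genes was in the same direction in both sets for most members and differed in size for some. Within replicates 1 and 2, 24 members were tested, of which 19 were called higher and 2 lower (Serpina1b and Serpinb6b), against 34.1% and 32.9% of all genes. Within replicates 3 to 6, 22 were tested, of which 20 were called higher and Serpina3c lower, against 42.2% and 39.5% of all genes. The difference between sets was called by both fits for 5 members. Serpina3n, Serpinb2, Serpine2 and Serping1 had the larger effect in replicates 1 and 2, against 3.86% of all genes, and Serpina1b in replicates 3 to 6, against 6.7%. The fitted difference of Serpinb2, 6.64, depends on how 0 counts are handled and is no measure of size. None of the 5 differences was called when sham replicate 1 or sham replicate 2 was left out. Larger log2 fold changes in replicates 1 and 2 were seen in 14 of the 22 members tested within both sets, Serpinb2 among them. The share over all genes was not computed, so this count does not set the family apart.

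**Figure D4:**
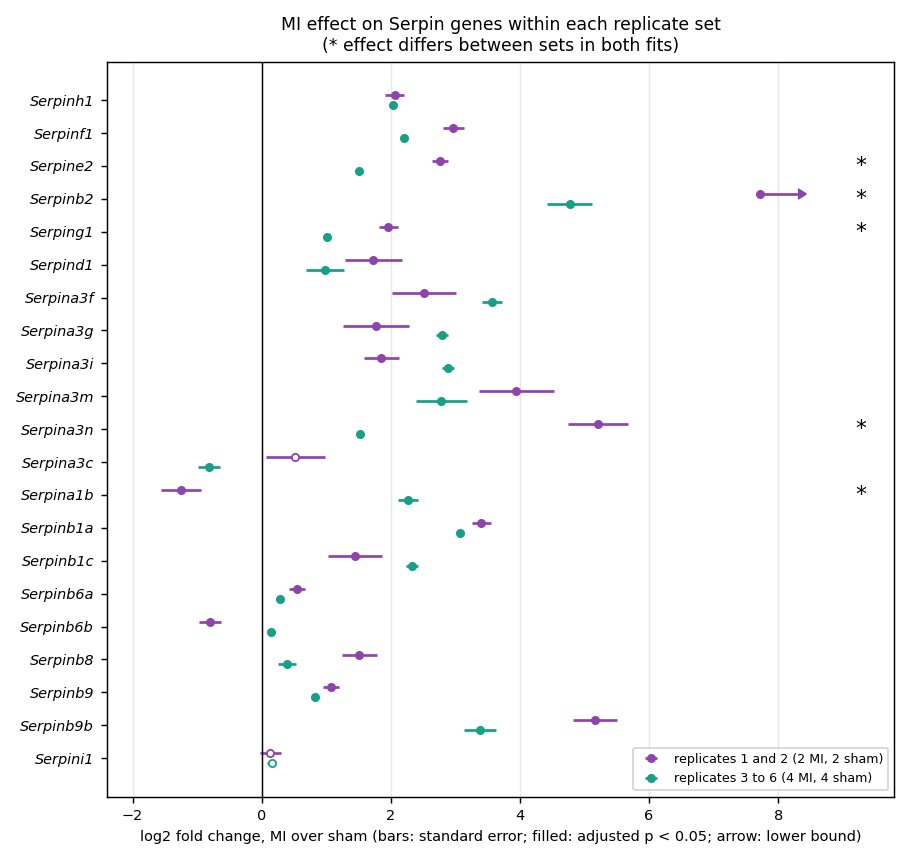
Log2 fold change of MI over sham for each tested Serpin gene described here, with a point for replicates 1 and 2 above a point for replicates 3 to 6, standard errors as bars, filled points where the adjusted p was under 0.05 and a star where both fits called the difference between sets. Most points lie right of 0, Serpina1b lies on opposite sides of 0 in the sets, and the arrow of Serpinb2 starts at the lower bound set by its 0 sham counts.

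The promoters of the risers were searched for 6 motifs. RefSeq gave promoter entries for 13 of the 17 risers, 16 entries in all, and Serpina3m, Serpinb1a and Serping1 were among those with none. In the 250 bases before the start, both strands were searched for the Smad CAGA box (CAGACA), the AP-1 site (TGANTCA), the GAS site bound by STAT factors (TTCNNNGAA), the interferon-stimulated response element (GAAANNGAA), the heat shock element (GAANNTTC) and the hypoxia response element (TACGTG). The CAGA box was found in Serpinh1, Serpinf1 and Serpina3f, and in 17.1% of 32851 promoters of the same length. The AP-1 site was found in Serpinb2 and Serpinb8, and in 6.75% of all promoters. The GAS site was found in 4 risers, Serpinb2, Serpina3f, Serpina3g and Serpina3i, of which the last 3 are near-copies on chromosome 12, and in 7.02% of all promoters. The interferon-stimulated response element was found in Serpinb9 and Serpina3f, and in 7.13% of all promoters. None of the 13 risers searched held the heat shock or hypoxia element in the letters given above, which 6.69% and 2.72% of all promoters held. Other spellings of these elements, and the risers without an entry, were not searched. A match describes letters in a window and does not show binding.

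Inhibitors of other families were also mostly higher in MI. Of 18 tested genes for cystatins, tissue inhibitors of metalloproteinases, inter-alpha-trypsin inhibitor chains and the like, 13 were called higher and 3 lower, and the median log2 fold change was 1.29. Timp1 and Pi15 rose by 5.12 (SE 0.22) and 2.17 (SE 0.11) on the log2 scale. Spint2, Timp4 and Wfdc1 were the ones called lower, at -1.15 (SE 0.08), -4.29 (SE 0.33) and -0.995 (SE 0.14). Cst3, cystatin C, was the most abundant not called (0.55, adjusted p = 0.134 counted once). For the 22 tested Serpin genes the median log2 fold change was 2.02, against 0.01 over all genes, and these are the members that passed the filter, not all 48.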

How the data were processed

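The members and the gene lists were chosen with earlier results of these data known. One deposited table holds all 12 libraries. The authors deposited expected counts, unscaled estimates per gene, with TPM and FPKM scaled to transcript or fragment totals. The submitters' processing notes name Bowtie2, RSEM and DESeq2 for replicates 3 to 6, no tool for replicates 1 and 2, and GRCm38 for all. Per the labels' protocols, mRNA was enriched with oligo(dT). Strandedness and the counting of shared reads are not given in the sources used here. The DESeq2 named there left no values used here. A separate deposited FPKM table covers replicates 1 and 2 alone.

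Expected counts were rounded to whole numbers and tested over all genes with edgeR 4.0.16 in R 4.3.3 (quasi-likelihood F test, TMM, filterByExpr, label set as covariate), with Benjamini-Hochberg adjusted p under 0.05, and tested on simulated data. A gene was called when the 12-library fit and the fit with replicates 3 to 6 summed and counted once agreed in direction past that threshold. The same test ran within each set, and the set difference was the interaction of set and group. "Counted once" marks the second fit, and other values are from the 12-library fit unless a set is named. Standard errors were taken as the log2 fold change divided by the root of its F statistic. Serpin genes were given library by library when called, at 10 CPM or more in any group of a set, or when the sets differed. Serpina3c, outside that rule, was added as the remaining tested member, with its values known. From each list the text names the 2 called members with the smallest adjusted p and the most abundant not called. The others it names were chosen after their values were seen. Some genes that enter the counts are not reported by name here. Intervals and the floor of 3 counts cover counting error only. DESeq2 1.42.0 and limma 3.58.1 on log2(FPKM + 1) and log2(FPKM + 0.1) served as alternatives, since TPM keeps no depth. Exon overlap and shared 50-base stretches came from GENCODE M21, promoters from RefSeq.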

Additional observations from a re-analysis of the deposited data

Results flagged for a closer look

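Of 84 groups of Serpin values examined, 8 held a library far from the others. Chance gives about 1 in 20 for separate groups of even spread. Some of these groups lie within others or pool sets of unlike spread, so the 8 cannot be set against that rate. The flagged values were 247 CPM of Serpinf1 in MI replicate 4 among MI replicates 3 to 6, 54.2 CPM of Serpinb6b in sham replicate 1, 26.5 CPM of Serpina3g in MI replicate 1 and 14.6 CPM of it in sham replicate 2. The others were 169 CPM of Serpina3n in MI replicate 2, 4.25 CPM of Serpina3f in sham replicate 2, 50.7 CPM of Serpina3i in MI replicate 2 and 3.53 CPM of it in sham replicate 4 among sham replicates 3 to 6. Of these 8 values, 5 belong to Serpina3 genes in replicates 1 and 2.

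The effect of MI differed between the sets, by the test of the difference in both fits, for 5 members. Replicates 1 and 2 minus replicates 3 to 6 gave log2 differences of 1.02 for Serping1, 6.64 for Serpinb2, 3.76 for Serpina3n, 1.33 for Serpine2 and -3.45 for Serpina1b. The value of Serpinb2 is fitted against 0 counts in the sham pair and is no measure of size. The causes of these differences were not tested.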

How the results depend on the processing

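The 17 rises became 18 with DESeq2's test, 19 with limma on FPKM, 20 with no filter, 19 with library size alone, and 13 with no label set or at an adjusted p under 0.01. No alternative called a Serpin gene lower over both sets. Within replicates 1 and 2 the 2 lower calls became 0 with library size alone and 1 at an adjusted p under 0.01. Within replicates 3 to 6 the 1 lower call became 3 with no filter. The set differences, 4 larger in replicates 1 and 2 and 1 in replicates 3 to 6, became 11 and 4 in the 12-library fit alone and 0 and 0 at an adjusted p under 0.01. Leaving out each replicate in turn gave 14 to 18 rises and 0 to 0 falls. It gave 16 to 20 rises and 0 to 2 falls within replicates 1 and 2, 19 to 21 rises and 1 to 1 falls within replicates 3 to 6, and 0 to 5 and 0 to 2 set differences. Direction reversed for uncalled genes: Serpina1b to -0.13 with replicates 3 to 6 counted once alone, and Serpinb6b to 0.22 with library size alone and 0.23 in both limma fits. The cause was not tested. With no label set, Serpina3n, Serpinb9, Serpinb8 and Serpinb1c lost their calls. The median over all genes tested stood at 0.42 with library size alone and 0.30 with log2(FPKM + 1). Deviations of same-numbered libraries from the mean of their group and set correlated at 0.0640 in replicates 1 and 2. In replicates 3 to 6 they correlated at -0.0479 to -0.0091. The deviations of 2 libraries mirror each other, so this check cannot show whether replicates 1 and 2 are paired. With the replicate block 17 genes rose and 0 fell, 19 and 2 within replicates 1 and 2, and 21 and 1 within replicates 3 to 6. In the separate FPKM table of replicates 1 and 2, 21 of 21 genes had the same sign, with log2 ratios higher by a median of 0.46. The 22 members with fewer than 10 counts in every library were left out of the main fits.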
